A study of Mus musculus with 29 samples.

Results

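Greb1l, Vwa2, Spock2, Naaa, Sulf1, Magi1, Sv2b and Ddit4 are 8 of the 23337 genes counted in RNA of mouse embryos at E9.0, the stage at which the trunk is being cut into somites. They were chosen by their measured log2 fold changes in the older somites against SOMA, the tissue that makes somites, so that fall is how they were picked and not a result. They belong to no common pathway. What the choice did not use is their levels in cultured explants and in mutant trunks, and there the differences were tested.

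The libraries fall into 8 groups, all of C57BL/6 embryos with the Dll1-YFP mark, which labels cells descended from Dll1-expressing mesoderm. DIR and CTRL (n = 4 each) are explants of presomitic mesoderm kept in culture, from which YFP-positive cells were sorted; DIR received LDN, a compound that blocks BMP receptors, and SAG, which switches on the Hedgehog transducer Smoothened, and CTRL received neither. The YFP-positive cells of SOMA, SOMB, SOMC and SOMD came straight from the embryo. SOMA (n = 3) joins the presomitic mesoderm and the newest somite. SOMB (n = 4) covers somites 2 to 5, SOMC (n = 4) covers 6 to 9, and SOMD (n = 4) starts at somite 10; its last somite is given as 13, 14, 15 or 16, one for each replicate number, so its extent is uncertain. MUT and WT (n = 3 each) are whole trunk pieces whose RNA was taken without sorting. The labels do not name the mutated gene. PEAT, the long non-coding RNA in the series title, is listed as AI646519 and had 0 counts in each MUT library against 25, 18 and 61 counts in WT libraries. Whether replicates are separate embryos is not stated, so the p-values cover only the spread among these libraries, part of which may be technical.

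In the vertebrate embryo, presomitic mesoderm is held in an immature state by Wnt and FGF signals from the tail bud. Retinoic acid made by the somites opposes these signals at the front. Cells at that front become epithelial and bud off as a somite, which then splits into sclerotome, dermis and muscle precursors. The 8 genes act at several places in and around such cells. Vwa2 encodes AMACO, a basement membrane protein of the von Willebrand factor A family that is linked to the Fraser complex; Spock2 encodes testican-2, a secreted proteoglycan related to SPARC; and Sulf1 encodes an enzyme outside the cell that trims 6-O-sulphate groups from heparan sulphate and so alters Wnt, FGF and BMP signalling. Magi1 is a scaffold of cell junctions. Sv2b is a membrane glycoprotein best known from synaptic vesicles. Naaa is a lysosomal enzyme that breaks down N-acylethanolamines such as palmitoylethanolamide. Greb1l is a nuclear protein needed for kidney development, tied to retinoic acid receptors, and Ddit4 (REDD1) is a stress-induced inhibitor of the growth kinase complex mTORC1.

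Windows of 300 bases around the start of transcription (250 before and 50 after it, RefSeq, GRCm38.p6) were at hand for 6 of the 8 genes, in 10 windows. The windows of 4 genes with a single listed start are shown, for Vwa2 and Naaa, whose levels went on down in older somites, and for Spock2 and Ddit4, whose levels then changed less. They lie at chr19:56874166-56874465 (Vwa2, plus strand), chr10:60106007-60106306 (Spock2, plus strand), chr5:92278132-92278431 (Naaa, minus strand) and chr10:59951721-59952020 (Ddit4, minus strand). Capitals mark letters of ACGTG, the core of sites for hypoxia-inducible factors, of GGGCGG, the GC box, or of CTTTGA, the core of sites for TCF/LEF factors, on either strand.
Vwa2: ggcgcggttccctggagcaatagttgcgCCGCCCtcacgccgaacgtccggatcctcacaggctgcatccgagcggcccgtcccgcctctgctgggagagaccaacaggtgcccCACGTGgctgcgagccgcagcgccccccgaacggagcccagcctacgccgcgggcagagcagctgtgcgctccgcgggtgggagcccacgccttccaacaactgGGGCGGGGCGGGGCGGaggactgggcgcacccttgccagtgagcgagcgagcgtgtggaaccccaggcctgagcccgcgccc
Spock2: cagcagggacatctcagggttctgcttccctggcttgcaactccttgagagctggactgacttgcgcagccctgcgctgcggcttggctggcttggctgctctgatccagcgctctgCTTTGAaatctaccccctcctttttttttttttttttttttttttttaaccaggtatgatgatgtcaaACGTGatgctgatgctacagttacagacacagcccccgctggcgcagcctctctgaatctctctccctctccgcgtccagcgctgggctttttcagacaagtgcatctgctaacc
Naaa: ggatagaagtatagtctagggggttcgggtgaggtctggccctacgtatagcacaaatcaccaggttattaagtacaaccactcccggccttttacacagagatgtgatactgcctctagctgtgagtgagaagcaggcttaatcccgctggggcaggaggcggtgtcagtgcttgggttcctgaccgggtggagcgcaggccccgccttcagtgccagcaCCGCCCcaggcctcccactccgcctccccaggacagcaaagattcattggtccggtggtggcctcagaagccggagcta
Ddit4: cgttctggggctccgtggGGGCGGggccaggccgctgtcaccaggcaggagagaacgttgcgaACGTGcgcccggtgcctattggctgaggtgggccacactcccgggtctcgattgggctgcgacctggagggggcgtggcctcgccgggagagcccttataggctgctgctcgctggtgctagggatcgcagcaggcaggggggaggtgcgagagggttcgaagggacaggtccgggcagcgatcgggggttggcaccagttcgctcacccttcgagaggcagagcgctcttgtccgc
The Vwa2 window is 73.3% G or C with 34 CpG pairs and that of Ddit4 69% with 26 pairs, against medians of 52.7% and 7 pairs over 32817 promoter windows. Naaa at 58.7% and 12 pairs and Spock2 at 52.3% and 10 pairs lie nearer to those medians. ACGTG is in at least 1 window of Ddit4, Spock2, Sv2b and Vwa2, which makes 5 of the 10 windows; 19.6% of all promoter windows hold it. In Vwa2 it matches both strands at once, within the letters CACGTG. The GC box GGGCGG is likewise in 5 of the 10 windows, against 35.6% of all windows. CTTTGA is in windows of Spock2 and Sv2b, against 16% of all windows, and AGGTGT (a core of T-box sites, 13.7% of all windows) in 1 window of Sv2b. AGGTCA (a core of retinoic acid receptor sites, 16.3%) and GTGGGAA (bound by the Notch effector RBPJ, 6.39%) are each in 1 window of Magi1, TATAAA (13.6%) is in 2 windows of Sv2b, and TGACGT (7.505%) is in none. These matches describe the letters of the windows.

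All 8 are protein-coding genes. In GENCODE M21 on GRCm38 (mm10), Vwa2 spans chr19:56874249-56912078 on the plus strand, Spock2 chr10:60106219-60135198 on the plus strand, and Sulf1 chr1:12692277-12861192 on the plus strand. Magi1 spans chr6:93675455-94283917, Sv2b chr7:75114894-75309262, Naaa chr5:92257659-92278170 and Ddit4 chr10:59949669-59951834, these 4 on the minus strand, and Greb1l chr18:10325177-10562940 on the plus strand. Merged exons run from 1755 bases in 3 blocks for Ddit4 to 11294 bases in 26 blocks for Sulf1. Sv2b alone shares exon sequence with another counted gene, the antisense transcript 1500012K07Rik, over 47 bases or 0.561% of its exons, and the library kit does not mark strand.

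The counts summed over genes ran from 11541131 to 44363411 per library. Markers of presomitic mesoderm (8 genes, among them Tbx6, Msgn1 and Dll1) summed to 552.3 to 772.5 CPM, the counts of a gene scaled to library size, in SOMA, 38.7 to 73.9 CPM in SOMB, 28.1 to 35.2 CPM in SOMC and 18.8 to 26.7 CPM in SOMD, so the labelled order of the series is visible in them. The same list came to 256.8 to 694.1 CPM in DIR and 188.8 to 409.1 CPM in CTRL. Markers of formed somites (8 genes) were present in every library, at 299.5 to 746.5 CPM, but Meox1 held the largest part of this sum. It averaged 408.7 CPM in SOMA and 276.8 CPM in CTRL. Pax1, Pax9 and Myf5 of this list averaged only 2.30, 1.44 and 0.529 CPM in SOMA and 1.34, 1.30 and 2.03 CPM in CTRL. The sorted libraries held little blood (6 genes, 3.84 to 84.9 CPM), while MUT held 1477 to 2721 CPM and WT 962.7 to 2271 CPM of these genes. SOMC1 with SOMC4, and SOMD1 with SOMD4, were nearly the same, with a chi-square per degree of freedom of 1.95 and 1.91 against 9.24 or more for any other pair within a group; since they still differed by more than sampling noise they were kept apart, and results with each pair summed are given where a call changes.

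Along the series the 8 genes started from very different levels and fell by very different amounts. The log2 fold changes against SOMA ran from -5.72 (Sv2b) to -1.24 (Naaa) in SOMB, from -6.90 (Sv2b) to -1.56 (Magi1) in SOMC, and from -7.63 (Sv2b) to -1.48 (Magi1) in SOMD. Their medians were -1.75, -2.28 and -3.26, where the medians over all 13790 genes tested were 0.006, 0.003 and 0.001. All 8 genes were lower in SOMB, SOMC and SOMD than in SOMA with no overlap between libraries, which held for 8.06%, 12.4% and 14.4% of all genes tested; as the choice rests on this contrast, nothing is read from that count and no test is given. In libraries of sorted cells from mixed tissue, fewer cells that express a gene and less of its RNA per cell cannot be told apart.

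**Figure D1:**
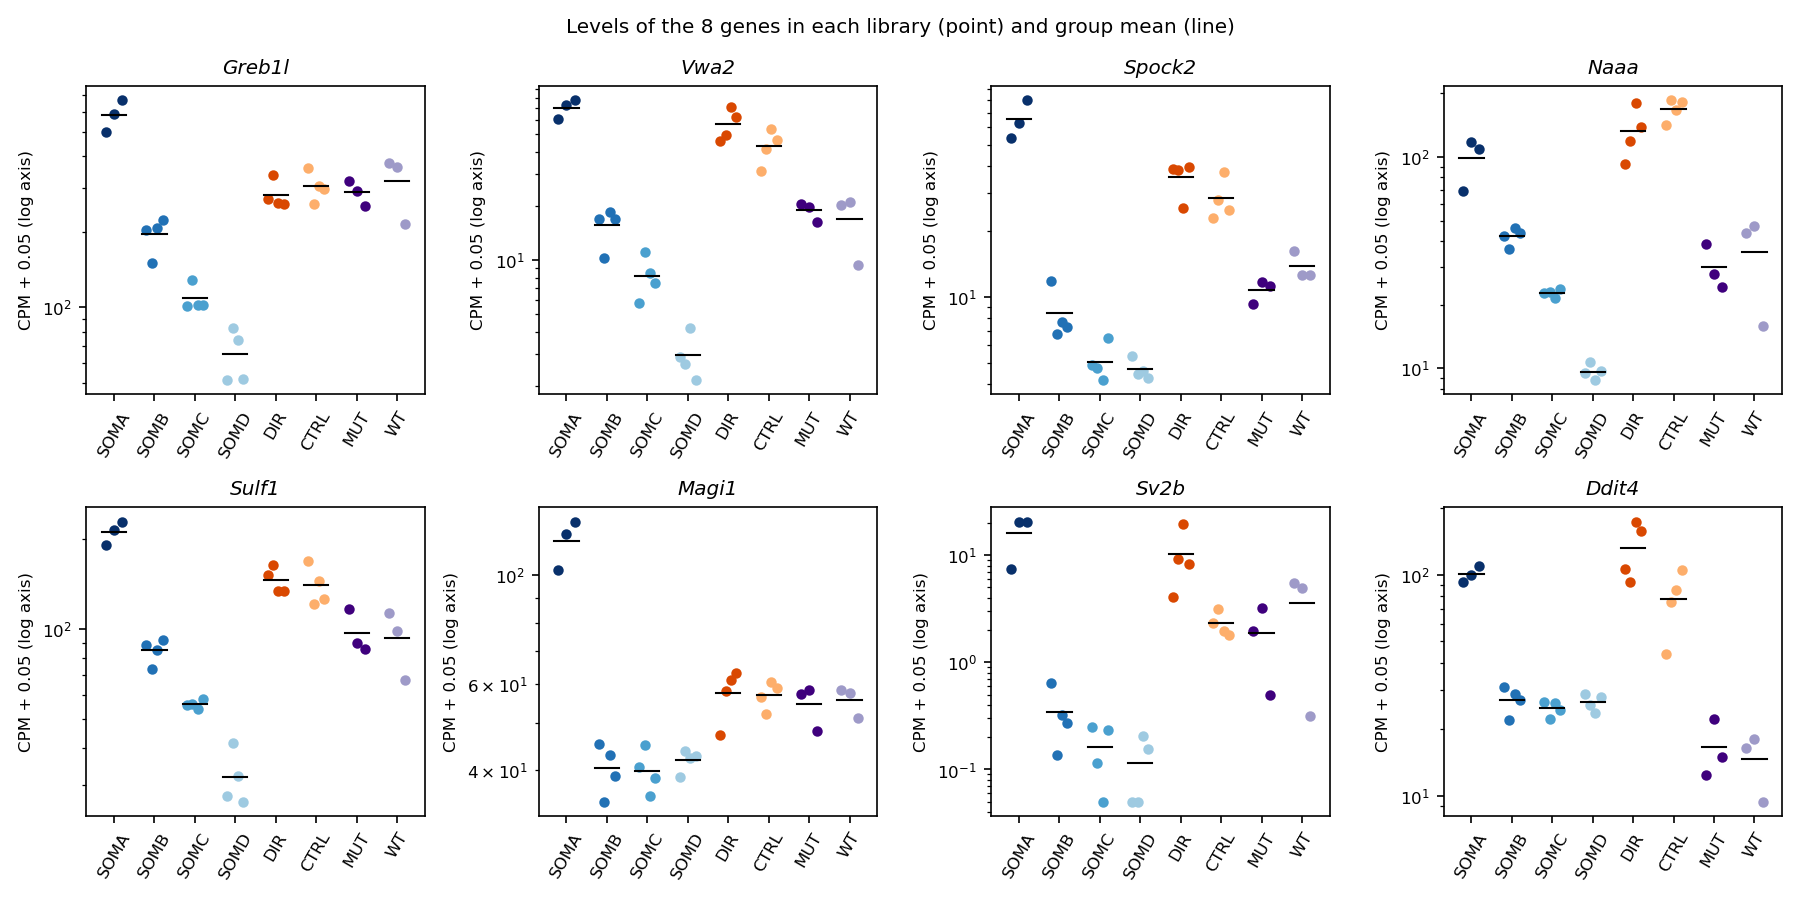
Level of each gene in every library, as CPM plus 0.05 on a log axis, in 8 panels; points are libraries, lines are group means, and groups run along the x axis. Each gene is highest in SOMA among the SOM groups, and the DIR and CTRL points of every gene lie above its SOMB points.

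Among the matrix and cell surface genes, Sulf1 had the slowest fall. It measured 190.3, 213.6 and 228.8 CPM in SOMA, 88.3, 73.6, 85.1 and 91.6 CPM in SOMB, 55.4, 55.8, 53.9 and 58.0 CPM in SOMC, and 27.6, 41.3, 32.0 and 26.3 CPM in SOMD. No library of one stage reached the range of the next. Vwa2 measured 61.0, 72.4 and 77.7 CPM in SOMA, 16.8, 10.2, 18.6 and 17.0 CPM in SOMB, 5.75, 11.0, 8.47 and 7.40 CPM in SOMC, and 2.85, 2.59, 4.16 and 2.10 CPM in SOMD. SOMB and SOMC overlapped through the low library SOMB2, and SOMD lay below both, at 4.16% of the SOMA mean. Spock2 averaged 65.6 ± 13.4 CPM in SOMA (SD, n = 3), and 8.36 ± 2.32 CPM in SOMB, 5.00 ± 1.0 CPM in SOMC and 4.61 ± 0.482 CPM in SOMD (SD, n = 4 each). Its loss was thus nearly complete at the first step, where it was at 12.7% of the SOMA mean in SOMB and at 7.03% in SOMD.

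The junction scaffold Magi1 behaved as a single step. It measured 102.6, 121.5 and 128.9 CPM in SOMA, and then averaged 40.3 ± 4.72 CPM in SOMB, 39.8 ± 3.99 CPM in SOMC and 41.8 ± 2.21 CPM in SOMD (SD, n = 4 each). The 3 older stages overlapped fully, at 33.8 to 35.5% of the SOMA mean. Sv2b went further than any other of the 8: it had 7.33, 20.5 and 20.4 CPM in SOMA, and at most 0.589 CPM in any library of SOMB, SOMC or SOMD. That is 808 reads over the 3 SOMA libraries, then 22, 10 and 5 reads over the 4 libraries of SOMB, SOMC and SOMD. With 0 reads in SOMC3, SOMD1 and SOMD2, a floor of 3 counts allows up to 0.195, 0.199 and 0.259 CPM in these libraries. The pooled level of SOMD was 0.0738 CPM, with an exact Poisson interval (95%, counting error only) of 0.0240 to 0.172 CPM. It overlapped that of SOMC (0.0616 to 0.236 CPM) and lay below that of SOMB (0.187 to 0.452 CPM), but 13 of the 22 SOMB reads came from SOMB1, which also had the highest Tbx6 of SOMB (5.26 CPM, with at most 1.03 CPM in the others). Without SOMB1 the SOMB interval was 0.0798 to 0.331 CPM around 0.174 CPM, which overlaps that of SOMD. The fitted fold changes of Sv2b in the older somites therefore rest on a handful of reads.

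Naaa, the lysosomal amidase, measured 69.1, 118.3 and 109.1 CPM in SOMA, 42.2, 36.8, 45.9 and 43.8 CPM in SOMB, 22.7, 22.9, 21.4 and 23.7 CPM in SOMC, and 9.41, 10.6, 8.72 and 9.60 CPM in SOMD. Its level went down at every step, and the libraries of each older stage lay close together. The most abundant of the 8, Greb1l, measured 498.7, 591.4 and 671.0 CPM in SOMA, 203.8, 149.5, 207.3 and 222.0 CPM in SOMB, 101.1, 128.7, 101.8 and 101.7 CPM in SOMC, and 51.1, 82.9, 73.7 and 51.7 CPM in SOMD. It too went down stage by stage without overlap. Ddit4, the mTORC1 inhibitor, measured 93.1, 99.3 and 109.3 CPM in SOMA and then stood at 27.1 ± 3.89, 24.7 ± 1.98 and 26.4 ± 2.29 CPM in SOMB, SOMC and SOMD (SD, n = 4 each). Like Magi1, it dropped once and stayed level, at 24.6 to 27.0% of the SOMA mean.

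**Figure D2:**
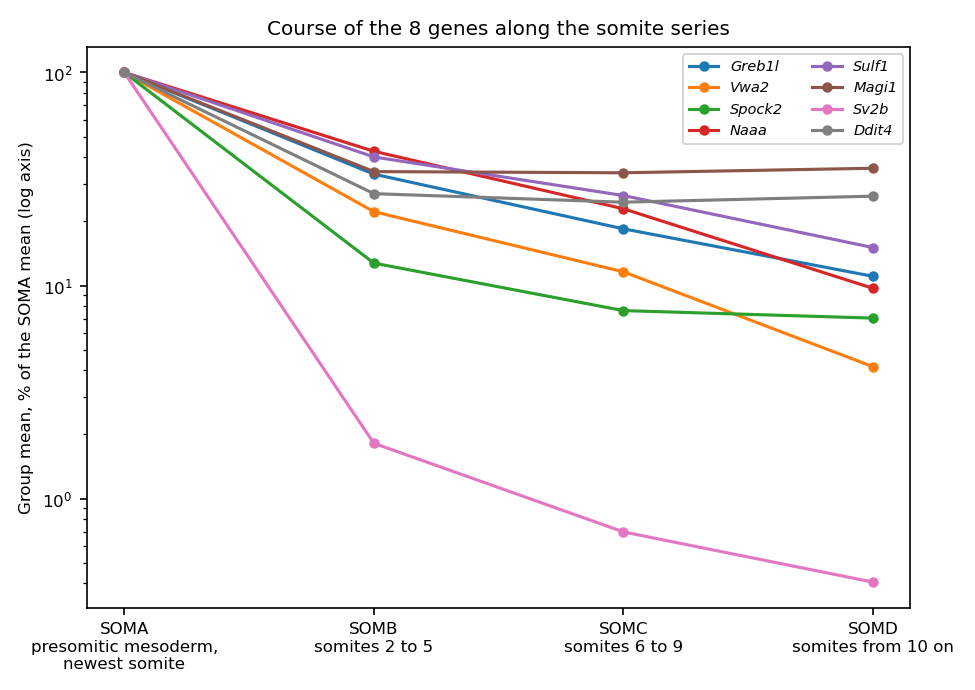
Group means along the series as a percentage of the SOMA mean (log axis), 1 line for each gene, from SOMA on the left to SOMD on the right. Magi1 and Ddit4 are level after SOMB, at 33.8 to 35.5% and 24.6 to 27.0%, while Greb1l, Vwa2, Naaa and Sulf1 go on down to 4.16 to 15.1% in SOMD.

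Library SOMA1 was the lowest of the 3 SOMA libraries for 8 of the 8 genes, and SOMB2 the lowest of the 4 SOMB libraries for 8 of 8. The share of all genes that were lowest in these libraries was not counted, so nothing is read from this. SOMA1 also had the lowest sum of presomitic markers (552.3 CPM against 760.8 and 772.5 CPM) and of tail bud markers (98.5 CPM against 280.3 and 230.5 CPM) within SOMA. SOMB2 had the lowest sum of both within SOMB, at 38.7 CPM and 14.4 CPM. Other lists differed too. SOMA1 was also the lowest of SOMA for surface epithelium (142.3 CPM) and endoderm (4.85 CPM). It was the highest for formed somite (607.5 CPM), neural (194.8 CPM), lateral plate, intermediate mesoderm and notochord markers. SOMB2 was also the lowest of SOMB for surface epithelium (130 CPM), lateral plate (113.4 CPM) and intermediate mesoderm (66.3 CPM), and the highest for neural (218.0 CPM) and notochord markers. The part of tissue composition in these levels was not tested. SOMA1 and SOMB1, together with SOMC1, SOMC4, SOMD1 and SOMD4, also had the larger share of reads in no feature (12 to 12.8%). On the side of larger share SOMA and SOMB are a single library each.

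The rule that made the set has no stated threshold. Among 10304 genes with a SOMA mean of at least 5 CPM, the member with the smallest fall in SOMB, Naaa, ranked 136 from the bottom at -1.24, and the next genes outside the set were Nhsl1 at -1.23 and Abca1 at -1.22. In SOMC the member with the smallest fall was Magi1, at rank 133 and -1.56, with Slco5a1 and Lef1 just outside at the same rounded value. In SOMD it was again Magi1, at rank 179 and -1.48, with Ildr2 and Irx1 outside at -1.47. Many genes outside the set therefore fell as much.

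The steps between the older somites leave out SOMA, but the low levels of SOMB, SOMC and SOMD entered the choice of the genes, so these differences too are a description. In SOMC against SOMB the log2 fold change was -0.94 ± 0.21 for Vwa2 (± SE), -0.89 ± 0.13 for Naaa, -0.85 ± 0.16 for Greb1l, -0.72 ± 0.19 for Spock2 and -0.59 ± 0.12 for Sulf1. Magi1 was at -0.01 ± 0.10 and Ddit4 at -0.12 ± 0.10. Dll3 and Cdx4 were lower at the same step (-1.39 ± 0.26, adjusted p = 0.0219, and -2.87 ± 0.52, adjusted p = 0.0178, by edgeR), the 1 of 8 presomitic and the 1 of 7 tail bud markers called; these genes were not part of the choice, and the part of such cells in the levels was not tested.

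In SOMD against SOMC the log2 fold change was -1.49 ± 0.25 for Vwa2, -1.23 ± 0.15 for Naaa, -0.80 ± 0.12 for Sulf1 and -0.73 ± 0.16 for Greb1l, while Spock2 (-0.12 ± 0.21), Magi1 (0.09 ± 0.10) and Ddit4 (0.12 ± 0.11) stayed near 0. Markers of intermediate mesoderm (5 genes) summed to 35.1 to 59.8 CPM in SOMD and 61.1 to 76.6 CPM in SOMC, with Pax8 lower at the edgeR threshold (-1.76 ± 0.42, adjusted p = 0.0369). Of 6 lateral plate markers Hand1 was lower (-1.35 ± 0.22, adjusted p = 0.00412) and Gata4 higher (2.46 ± 0.43, adjusted p = 0.00610), and of 7 tail bud markers Cdx2 was lower (-2.95 ± 0.72, adjusted p = 0.0424). SOMD2 was the highest SOMD library for intermediate mesoderm (59.8 CPM). It was also the highest for every other marker list except neural and blood, where it was the lowest. Among the members it was the highest for Greb1l (82.9 CPM), Sulf1 (41.3 CPM), Naaa (10.6 CPM) and Magi1 (43.8 CPM). It was not for Spock2, Ddit4, Sv2b or Vwa2, which had 2.59 CPM there and 4.16 CPM in SOMD3. The part of these cell types in the levels was not tested.

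Counted at edgeR's adjusted threshold of 0.05, 3 of the 8 genes (Naaa, Greb1l and Sulf1) were lower in SOMC against SOMB, beside 0.341% of 13790 genes tested, and 4 (these and Vwa2) in SOMD against SOMC, beside 1.07%; nothing is read from these counts, since the choice favours them. Without SOMB1, SOMB4, SOMC1, SOMC3 or SOMC4 only Naaa was counted in SOMC against SOMB, without SOMC2 Sulf1 was not, and with the near-identical pairs summed 0 were. In SOMD against SOMC, Greb1l was not counted without SOMC1, SOMC2, SOMC4, SOMD1 or SOMD4, or with the pairs summed. Sv2b is left out of both steps, because it entered the fit only through its SOMA libraries. On the side of larger no-feature share, SOMB is 1 library (SOMB1) and SOMC and SOMD are the near-identical pairs, so the values there have no usable spread. For Naaa, the differences of log2(mean CPM + 1) on the larger and the smaller side were -0.84 and -0.90 in SOMC against SOMB, and -1.20 and -1.12 in SOMD against SOMC.

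**Figure D3:**
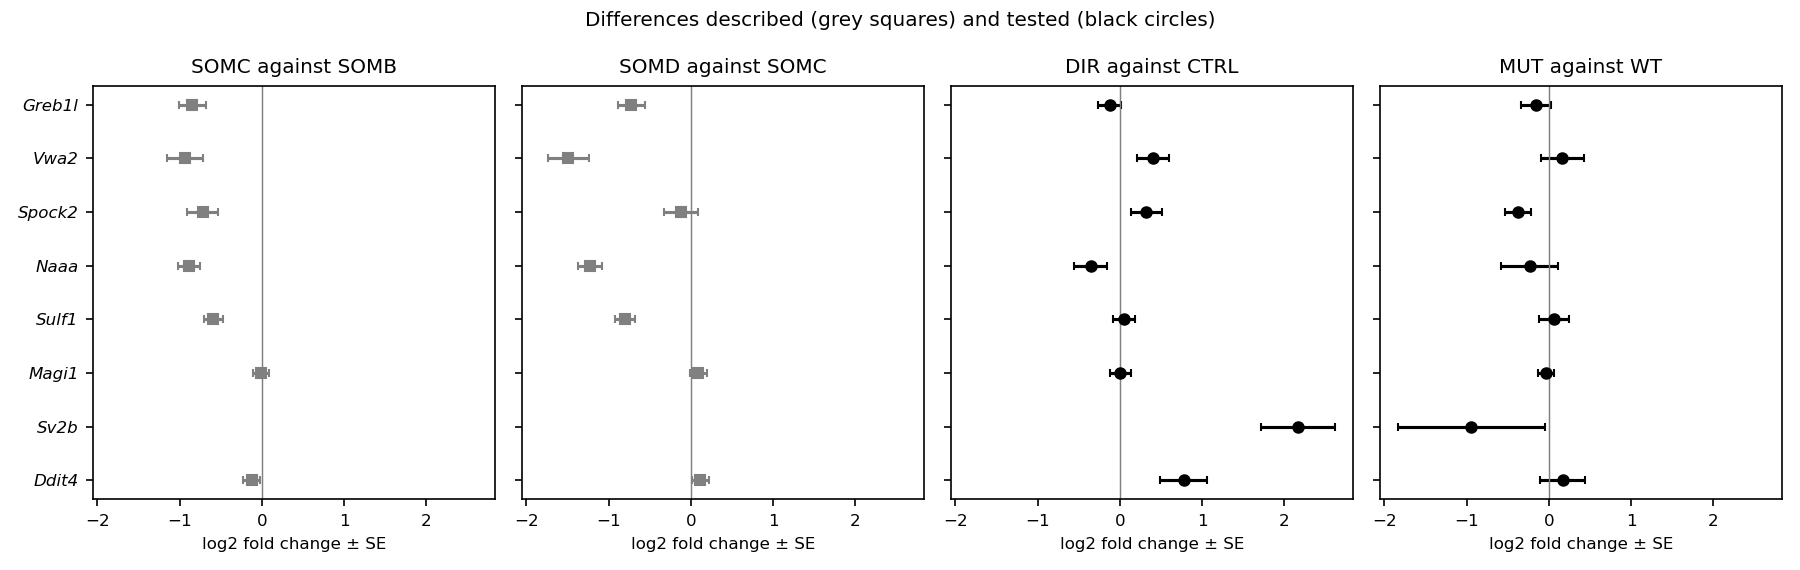
Log2 fold change with its standard error for each gene in 4 comparisons: grey squares for both steps between older somites, which are described, and black circles for DIR against CTRL and MUT against WT, which were tested. Vwa2, Naaa, Sulf1 and Greb1l lie between -1.49 and -0.59 in both steps, Magi1 and Ddit4 lie near 0 there, and Sv2b is at 2.17 in DIR against CTRL.

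In the cultured explants all 8 genes lay above their level in formed somites. For each of the 8, every one of the 8 culture libraries was higher than every SOMB library, as for 12.3% of the 12794 genes that averaged 1 CPM or more; the choice of genes with low SOMB levels favours this. Naaa averaged 132.9 ± 37.1 CPM in DIR and 169.5 ± 20.4 CPM in CTRL (SD, n = 4 each), above its mean of 98.8 ± 26.1 CPM in SOMA (SD, n = 3); the CTRL libraries (141.3 to 186.0 CPM) did not overlap those of SOMA and the DIR libraries (92.9 to 181.0 CPM) did. Ddit4 averaged 132.6 ± 39.2 CPM in DIR, also above SOMA though with overlap, and 77.4 ± 25.4 CPM in CTRL. For the other 6 genes the means of both culture groups lay below that of SOMA, from 14.0% of it for Sv2b in CTRL to 81.3% for Vwa2 in DIR. Culture and tissue were not compared by a test, since they differ in handling as well as in stage.

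LDN and SAG were compared with no molecules in DIR against CTRL, in libraries that the choice of the genes did not use. None of the 8 passed edgeR's adjusted threshold, where 0.747% of 14190 genes tested did; 2 had an unadjusted p under 0.05, and DESeq2 called 1. That one was Sv2b, which measured 3.98, 9.21, 19.5 and 8.28 CPM in DIR and 2.25, 3.12, 1.92 and 1.74 CPM in CTRL. The groups did not overlap, with the lowest DIR library just above the highest CTRL library and DIR3 at the level of SOMA; 4.74% of all genes tested were likewise higher without overlap. Its log2 fold change was 2.17 ± 0.45 (adjusted p = 0.0696 by edgeR and 3.70e-05 by DESeq2), and edgeR's adjusted p was 0.0211 without DIR1. No presomitic marker passed in DIR against CTRL (0 of 8, median log2 fold change 0.50). Tbx6 measured 27.2, 34.9, 94.5 and 81.0 CPM in DIR and 18.8, 52.5, 50.5 and 60.3 CPM in CTRL, with overlap (0.38 ± 0.46, adjusted p = 0.715). Ripply2 (1.08 ± 0.27, adjusted p = 0.143) and Lfng (1.07 ± 0.38, adjusted p = 0.256) had the largest log2 fold changes of the list by edgeR. Only Msgn1 was negative (-0.54 ± 0.51). DIR3, the highest for Sv2b, also had the highest presomitic sum, 694.1 CPM. Within CTRL, CTRL2 was the highest for Sv2b and for this sum (409.1 CPM). CTRL4, the lowest for Sv2b, had a sum of 397.7 CPM and the highest Tbx6 of CTRL. The part of presomitic cells in these levels was not tested.

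Other cell type markers did differ between DIR and CTRL. Of 6 lateral plate markers 5 were lower in DIR by edgeR, among them Gata5 (-3.19 ± 0.29, adjusted p = 0.00121) and Hand1 (-2.34 ± 0.28, adjusted p = 0.00573), and their sum was 49.9 to 128.5 CPM in DIR and 141.0 to 277.7 CPM in CTRL. Wt1 was the 1 of 5 intermediate mesoderm markers called (-2.24 ± 0.39, adjusted p = 0.0386). Of 8 formed somite markers Pax1 was higher (3.93 ± 0.45, adjusted p = 0.00529) and Myf5 lower (-3.00 ± 0.39, adjusted p = 0.00873). Their part in the levels of the 8 genes was not tested.

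Ddit4 measured 106.0, 92.9, 174.2 and 157.2 CPM in DIR and 43.9, 75.6, 85.3 and 104.7 CPM in CTRL. CTRL4 alone reached into the DIR range, and the log2 fold change was 0.78 ± 0.28 (adjusted p = 0.262). Naaa was at -0.35 ± 0.20 (adjusted p = 0.415), Vwa2 at 0.40 ± 0.20 (adjusted p = 0.360) and Spock2 at 0.32 ± 0.19 (adjusted p = 0.434). Greb1l (-0.13 ± 0.14), Sulf1 (0.05 ± 0.13) and Magi1 (0.01 ± 0.13) lay close to 0. The culture libraries split by the share of alignments at more than 1 place, which was larger in DIR1, DIR2 and CTRL1 (22.3 to 25.4%) than in the others (15.9 to 19.5%). With this share in the model, Sv2b (2.39, adjusted p = 0.0306), Ddit4 (1.20, adjusted p = 0.0103) and Vwa2 (0.66, adjusted p = 0.0371) passed. On the larger side, where CTRL is 1 library, and on the smaller side, the differences of log2(mean CPM + 1) were 1.22 and 2.19 for Sv2b, 1.16 and 0.90 for Ddit4, and 0.59 and 0.49 for Vwa2. Fitted with all 29 libraries, Sv2b (adjusted p = 0.0238) and Ddit4 (adjusted p = 0.0278) passed as well.

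In whole trunk tissue none of the 8 differed between MUT and WT past the threshold. By edgeR 0 of the 8 were called in MUT against WT, where 0.338% of 14485 genes tested were, and DESeq2 also called 0 of the 8; 1 gene had an unadjusted p under 0.05. This was Spock2, with 9.22, 11.7 and 11.2 CPM in MUT and 16.3, 12.6 and 12.5 CPM in WT. The groups did not overlap, as for 10.1% of all genes tested in that direction, and the log2 fold change was -0.38 ± 0.16 (adjusted p = 0.285). Greb1l (-0.15 ± 0.18), Vwa2 (0.16 ± 0.26), Naaa (-0.23 ± 0.35), Sulf1 (0.06 ± 0.18), Magi1 (-0.03 ± 0.10) and Ddit4 (0.17 ± 0.27) had adjusted p-values of 0.761 or more.

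Replicate 3 was the lowest library of its group for most of these genes, though often by little. Sv2b measured 1.92, 3.15 and 0.445 CPM in MUT and 5.42, 4.90 and 0.268 CPM in WT, with a log2 fold change of -0.94 ± 0.89 (adjusted p = 0.689). Replicate 3 was the low library on both sides. WT3 was the lowest of the 3 WT libraries for 8 of the 8 genes, and MUT3 the lowest of the 3 MUT libraries for 6 of 8. The share of all genes that were lowest in these libraries was not counted, so nothing is read from this. For Spock2, WT3 (12.5 CPM) was close to WT2 (12.6 CPM). For Naaa and Sulf1, MUT3 (24.0 and 85.6 CPM) was near MUT2 (27.9 and 89.7 CPM). For Spock2 and Ddit4, MUT1 was the lowest of MUT (9.22 and 12.3 CPM). Tbx6, a transcription factor that defines presomitic mesoderm, measured 2.21, 4.07 and 0.864 CPM in MUT and 4.87, 4.69 and 0.295 CPM in WT, and Msgn1 had 0 counts in WT3. The sum of all 8 presomitic markers was 130.3, 176.8 and 135.8 CPM in MUT and 191.8, 158.5 and 118.9 CPM in WT. This sum was thus lowest in WT3, but MUT3 lay above MUT1. Most of it came from Dll1, Lfng and Dll3, which averaged 72.9, 35.8 and 30.5 CPM in MUT. Dll1 was lowest in MUT1 (60.8 CPM, against 66.1 CPM in MUT3). Msgn1, Ripply2 and Mesp2, like Tbx6, were lowest in MUT3, at 0.236, 0.733 and 1.60 CPM. Tail bud markers (7 genes) summed to 68.0, 64.7 and 45.8 CPM in MUT and 138.9, 116.6 and 29.3 CPM in WT. Surface epithelium, endoderm and lateral plate markers were also lowest in replicate 3 of both groups. They summed to 202.6, 36.0 and 27.8 CPM in MUT3 and to 150.4, 33.3 and 35.2 CPM in WT3. Neural markers (8 genes) ran the other way, at 414.1, 426.8 and 653.7 CPM in MUT and 498.0, 398.0 and 710.9 CPM in WT. Formed somite markers were also highest in MUT3 (555.1 CPM) and WT3 (503.7 CPM). Their part in the levels of the 8 genes was not tested.

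**Figure D4:**
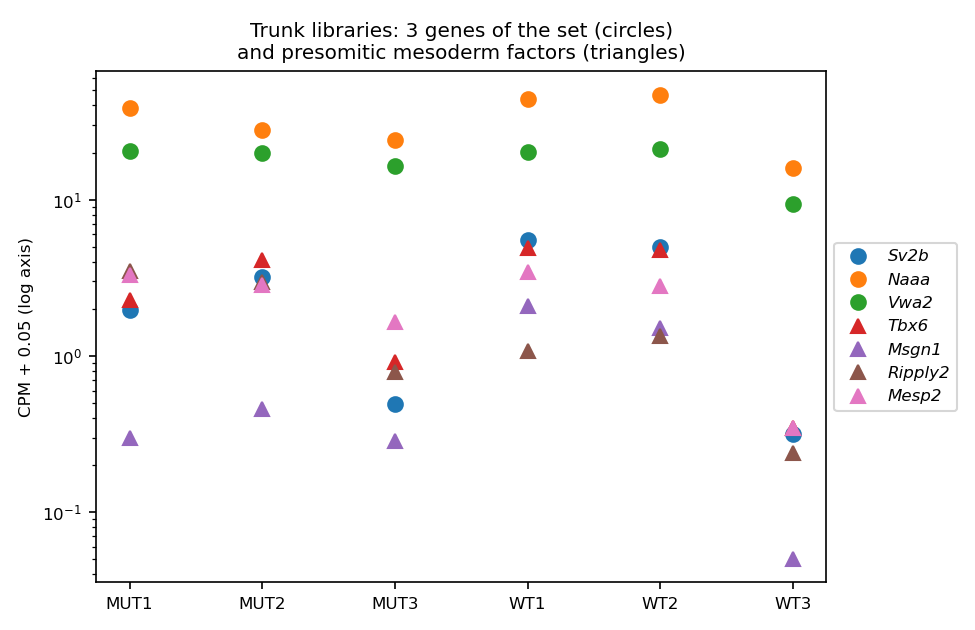
Levels in the 6 trunk libraries, as CPM plus 0.05 on a log axis, for Sv2b, Naaa and Vwa2 (circles) and 4 presomitic mesoderm factors (triangles), MUT to the left of WT. Sv2b and Tbx6 are both lowest in MUT3 and WT3, at 0.445 and 0.864 CPM in MUT3 and 0.268 and 0.295 CPM in WT3. The sum of all 8 presomitic markers, not drawn, was lowest in MUT1 and WT3. Most of that sum came from Dll1, Lfng and Dll3, which are not drawn either.

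Set in order over all 8 groups, 6 of the genes had their highest mean in SOMA, Naaa had it in CTRL and Ddit4 in DIR. Of the 56 pairs of neighbouring groups in these orders, 20 did not overlap in their libraries; over all genes that averaged 1 CPM or more, 11.9% of such pairs did not, and the choice bears on the pairs with SOM groups. Magi1 had a single level in DIR, CTRL, WT and MUT, with means of 57.3, 56.9, 55.5 and 54.5 CPM and overlapping libraries. Greb1l likewise had overlapping levels in WT, CTRL, MUT and DIR (318.7, 305.0, 287.6 and 281.0 CPM), between SOMA and SOMB. Ddit4 was the only one with trunk means below all SOM groups, 16.5 ± 5.17 CPM in MUT and 14.6 ± 4.64 CPM in WT (SD, n = 3 each), though MUT2 reached into the ranges of SOMB and SOMC. Per kilobase of exon, which allows levels to be set side by side between genes, Ddit4 and Greb1l were the highest in SOMA (57.3 and 53.3 CPM per kb), followed by Naaa (26.6), Sulf1 (18.7), Vwa2 (17.4), Spock2 (11.9), Magi1 (11.1) and Sv2b (1.92 CPM per kb). In SOMD, Ddit4 led with 15.1 CPM per kb, Greb1l had 5.88 and Magi1 3.95 CPM per kb, and Vwa2 had 0.723 CPM per kb.

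The nearest relatives of the 8 genes mostly did not share their course. Greb1 did: it averaged 77.6 ± 23.6 CPM in SOMB (SD, n = 4) and 287.2 ± 55.5 CPM in SOMA (SD, n = 3), with a log2 fold change of -1.90 ± 0.21 (adjusted p = 2.87e-05), and -2.12 ± 0.21 in SOMD against SOMA (adjusted p = 3.36e-06). Magi3 was lower in SOMD, with 38.4 CPM against 79.9 CPM in SOMA (-1.04 ± 0.14, adjusted p = 4.95e-05), but not in SOMB (-0.18 ± 0.14, adjusted p = 0.577); Magi2 did not pass in either (adjusted p = 0.887 in SOMD). Sulf2, the other heparan sulphate sulfatase, had 361.3 CPM in SOMD and 346.2 CPM in SOMA (0.08 ± 0.07, adjusted p = 0.475), and was lower in SOMB with 287.9 CPM (-0.27 ± 0.07, adjusted p = 0.0183). Several relatives of the other genes went up in SOMD against SOMA. Sv2a rose by 1.27 ± 0.22 (adjusted p = 6.11e-04), Vwa1 by 1.64 ± 0.23 (adjusted p = 8.56e-05), Spock3 by 1.70 ± 0.25 (adjusted p = 1.43e-04) and Spock1, at under 1 CPM, by 1.97 ± 0.54 (adjusted p = 0.0171). Asah1, an acid ceramidase related to Naaa, fell by 0.24 on the log2 scale (SE 0.07, adjusted p = 0.0304), Ddit4l did not pass (-0.17 ± 0.20, adjusted p = 0.612), and Sv2c was too low to be tested. The differences between members and relatives were not themselves tested.

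**Figure D5:**
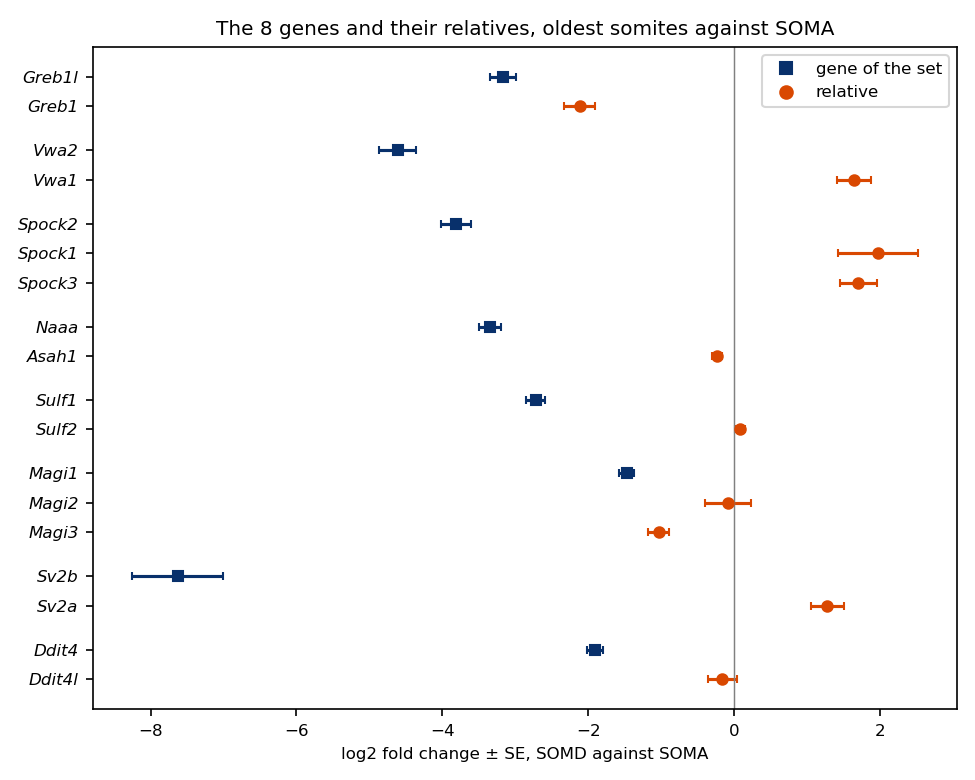
Log2 fold change with its standard error in SOMD against SOMA for the 8 genes (squares) and 10 relatives (circles). All squares lie left of 0, whereas Vwa1, Spock1, Spock3 and Sv2a lie at 1.27 or more.

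Other genes of the same pathways, 105 in 10 lists, showed no general fall. In SOMD against SOMA, 19 of the 94 tested rose and 18 fell, where 10.8% and 8.92% of all genes tested did; in SOMB against SOMA it was 8 and 6 of 94, where 4.13% and 4.55% did. Of the heparan sulphate genes around Sulf1, 5 of 17 rose and 2 fell in SOMD against SOMA, with the 6-O-sulfotransferase Hs6st2, which adds the groups that Sulf1 removes, up by 1.21 ± 0.09 (adjusted p = 8.73e-08) and Hs6st1 at -0.31 ± 0.09 (adjusted p = 0.0160). In the SPARC family of Spock2, 3 of 7 rose and 2 fell. Smoc2 rose by 2.34 ± 0.18 (adjusted p = 2.51e-07), Smoc1 was at -2.51 ± 0.17 (adjusted p = 4.74e-08) and Sparcl1 at -0.84 ± 0.06 (adjusted p = 1.20e-07). Hs6st2 (0.98 ± 0.09, adjusted p = 3.04e-06) and Smoc1 (-1.68 ± 0.16, adjusted p = 6.69e-06) had already passed in SOMB against SOMA, as had Ndst3, a sulfotransferase of heparan sulphate (2.52 ± 0.36, adjusted p = 2.62e-04). Around Vwa2 3 of 9 rose and 0 fell, among them Fras1 of the Fraser complex (1.001 ± 0.16, adjusted p = 3.27e-04). In the Magi list 1 of 11 rose and 4 fell, in the synaptic list of Sv2b 1 of 8 rose and 3 fell, and in that of N-acylethanolamine turnover 1 of 6 rose and 1 fell. For Ddit4, 2 of 15 mTORC1 genes rose and 2 fell, among them Deptor, another mTOR inhibitor, at -1.75 ± 0.23 (adjusted p = 4.20e-05). Hypoxia targets (3 of 12 up, 2 down) and genes of the integrated stress response (0 of 9 up, 2 down), which include inducers and partners of Ddit4, were split or mostly not called. In DIR against CTRL, 1 of 94 rose and 0 fell; this was Smoc1, with 349.2 CPM in DIR and 138.9 CPM in CTRL (1.32 ± 0.13, adjusted p = 0.00230). In MUT against WT, 0 of 99 passed in either direction.

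For each of the 8 genes the 3 most similar courses over the 8 group means were found among 10478 genes, by the root mean square difference of centred log2(CPM + 1); the 8 points share libraries of different depth and handling. For Naaa the closest was Ppef2, with a difference of 0.206. Ppef2, which encodes a protein phosphatase, is also its neighbour on the chromosome: it lies at chr5:92226679-92256278 on the same strand, 1380 bases past the end of Naaa. Ppef2 averaged 13.8 CPM in SOMA, 5.53 CPM in SOMB, 3.13 CPM in SOMC and 1.13 CPM in SOMD, then 18.3 CPM in DIR and 20.6 CPM in CTRL, and 3.17 CPM in MUT and 4.27 CPM in WT. The ratio of Ppef2 to Naaa reads stayed between 0.103 and 0.143 in the 8 group means, with single libraries from 0.0815 to 0.186, while Naaa itself varied between 9.59 and 169.5 CPM. On its other side, 5839 bases away, Sdad1 had 213.5 CPM in SOMA and 178.1 CPM in SOMD. Falling neighbours were not particular to Naaa. Afap1l2, 282 bases from Vwa2, averaged 6.41 CPM in SOMA, 2.00 CPM in SOMD, 6.71 CPM in DIR and 7.95 CPM in CTRL. Next to Sulf1, Slco5a1 at 5356 bases went from 8.74 CPM in SOMA to 2.79 CPM in SOMD, and A830018L16Rik at 716375 bases from 5.89 to 0.328 CPM. The other genes next to members fell less or not at all. Whether neighbours share a cause was not tested. The 24 entries hold 21 genes, since 3 were found for 2 members each; 20 of the 21 could be placed in the annotation, and only Ppef2 and, at 55895592 bases, Pmaip1 for Greb1l lay on the chromosome of their member.

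Sall1, a zinc finger transcription factor, was the closest to Sulf1 (0.182) and second to Greb1l (0.273), after Pmaip1 (0.233), which encodes the cell death protein NOXA. Greb1l and Sulf1 were also the most alike of all pairs among the 8 (0.291). For Magi1 the closest were Hmcn1 (0.195), Sall4 (0.210) and Hoxb1 (0.218), and for Ddit4 Lmo2 (0.236). Dll1, the Notch ligand whose lineage mark was used for sorting, was second to Vwa2 (0.416, after Foxb1 at 0.399) and the closest to Sv2b, though at the larger difference of 0.521. Spock2 was closest to Rftn1 (0.332). With a minimum mean of 1 CPM in place of 5 CPM, 14 of the 24 entries were kept, and with a pseudocount of 0.25 in place of 1, 17.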

How the data were processed

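Integer counts of reads per gene were deposited by the authors, 1 file for each of 29 libraries with 23337 genes and 5 summary lines, which were left out of library sizes. The submitters' processing notes name HTSeq 0.6, TopHat2 2.0.9, DESeq2 1.10 and Cufflinks, and the build mm10; the gene annotation and strand setting behind the counts were not stated. Per the labels' protocols, RNA was extracted with Trizol and libraries were made with the TruSeq v2 kit and 11 rounds of PCR. Between 6.54 and 12.8% of a library lay outside any feature, 0.584 to 1.85% was ambiguous and 15.9 to 40.6% aligned at more than 1 place.

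The members and the lists were chosen with earlier results of these data known. The test was edgeR 4.0.16's quasi-likelihood F test (R 4.3.3, TMM factors, prior count 0.125) on genes kept by filterByExpr with a count of 10 and a total of 15 as minimum, with Benjamini-Hochberg adjustment over all genes tested and a threshold of 0.05. All 8 genes passed the filter in each fit, Sv2b in the SOM fit only through SOMA. SOM libraries were fitted together, DIR with CTRL and MUT with WT apart; standard errors are the log2 fold change divided by the root of F. Levels are CPM with TMM factors over all libraries. No p-value is given for members in any comparison among the SOM groups, whose levels entered the choice; the steps between older somites had been planned as tests. The fits were tested on simulated data first. Intervals and floors cover counting error only.

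Named genes are all members, the listed relatives and the 3 genes most like each member. Up to 3 further called list genes with the lowest p in a comparison are named too. Smoc2, Hs6st1, Fras1, Deptor, Sdad1, Afap1l2, Slco5a1, A830018L16Rik and the marker genes are named outside that rule, after their values were seen. Same-number libraries all deviated together in SOMB against SOMA (correlations of 0.577 to 0.610) and SOMD against SOMC (0.601 to 0.731), over 10494 genes. In each of the other comparisons only some pairs had a correlation over 0.1. In DIR against CTRL the correlations were 0.865, -0.798, 0.466 and 0.671, and in MUT against WT 0.00717, 0.258 and 0.368. This comes from the data, as the labels do not state a pairing. Alternatives were RLE factors, library totals, no filter, a replicate block, DESeq2 1.42.0, all libraries in 1 fit, each library left out, technical shares or Xist as covariates, and summed near-identical pairs. A further one, chosen after seeing the data, used the sets of libraries that deviate together as a block. Figures were drawn with matplotlib 3.10.9.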

Additional observations from a re-analysis of the deposited data

Results flagged for a closer look

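Over 40 combinations of gene and group with 4 libraries, 3 had a library far from the others by Dixon's criterion, where about 2 are expected by chance. Greb1l measured 128.7 CPM in SOMC2, with the other SOMC libraries at 101.1 to 101.8 CPM, of which SOMC1 and SOMC4 are nearly identical. Greb1l also measured 335.6 CPM in DIR2, with the other DIR libraries at 258.8 to 269.9 CPM. Spock2 measured 25.57 CPM in DIR3, below the other DIR libraries at 38.41 to 39.26 CPM. Groups of 3 libraries (SOMA, MUT and WT) were not examined in this way.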

How the results depend on the processing

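Values of single members under other settings numbered 1312, of which 1274 were counted as unchanged. Of the rest, 22 lost the threshold, 15 gained it, 1 moved (Sv2b in SOMB against SOMA, -6.45 without SOMB1) and 0 reversed. A tested value counted as unchanged if it stayed on its side of the threshold. An untested one did if it moved by less than the spread between replicates. A change of sign in values that did not pass was not counted as reversed. Naaa in MUT against WT, for example, ran from -0.59 to 0.20 on the log2 scale. In DIR against CTRL the 0 members called became 1 with DESeq2, 3 with the share of alignments at more than 1 place, 2 with all 29 libraries in 1 fit, and 0 to 1 with a library left out. In SOMC against SOMB, where the choice bears on the count, the 3 called became 5 with DESeq2, 0 with near-identical libraries summed, 1 with all 29 libraries, 5 with library sets as a block (chosen after seeing the data), and 1 to 4 with a library left out. In SOMD against SOMC 3 to 4 were called in all 24 settings, beside 1.07% of all genes called lower in the main fit. The choice bears on this count too, so nothing is read from its stability. In MUT against WT 0 were called in all 13 settings. The median log2 fold changes against SOMA ranged from -1.82 to -1.62 in SOMB, -2.44 to -2.19 in SOMC and -3.41 to -3.17 in SOMD. Of the 24 entries of like genes, 14 were kept with a minimum mean of 1 CPM. With the replicate block, 0, 0, 3 and 4 members were called in DIR against CTRL, MUT against WT, SOMC against SOMB and SOMD against SOMC, and no call of a member changed. The calls over all genes moved more. In DIR against CTRL 106 became 256 with the replicate block, 497 with DESeq2, 216 with the share and 1482 with all 29 libraries, and 40 to 67 without some single libraries. In MUT against WT 49 became 328 with the replicate block, 690 with DESeq2, 197 without a filter, 106 with library totals, 21 with all 29 libraries, 1 with the level of Xist in the model and 0 to 88 with a library left out. In SOMC against SOMB 114 became 179 with the replicate block, 289 with DESeq2, 15 summed, 620 with sets, 39 with all 29 libraries and 25 to 73 without some single libraries. In SOMD against SOMC 322 became 492 with DESeq2, 537 with the no-feature share, 51 summed, 1023 with sets, 142 with all 29 libraries and 130 to 161 without some single libraries. The cause was not tested, except that summing leaves fewer libraries. Low counts limit Sv2b in the older somites, where 5 to 22 reads were counted over 4 libraries.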
